A study of Mus musculus with 16 samples.

Results

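Platelet-derived growth factor (PDGF) signalling was described in C2C12, a mouse myoblast cell line whose cells stop dividing and fuse into multinucleated myotubes in low serum. The members were 7 genes of the 35275 in the deposited table, found by their gene names. They were the receptors Pdgfra and Pdgfrb, the ligands Pdgfa, Pdgfb, Pdgfc and Pdgfd, and the receptor-like gene Pdgfrl. The set was chosen by the fall of Pdgfrl FPKM from control to triple knockout (tKO) cells on day 3 of differentiation, so that contrast is described here without a test for any member. All 7 members passed the filter on low values, a mean of at least 0.5 FPKM (sequenced fragments per kilobase of a gene, scaled to depth), which left 11832 genes for testing.

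Poly(A) RNA was sequenced from 2 control C2C12 populations, labelled wild type, and from 2 tKO clones that lack miR-206 together with the related microRNA genes miR-1a-1 and miR-1a-2. The labels describe all the cells as PAX7 negative. Each line was sampled while proliferating in growth medium with fetal bovine serum (GM) and 3 days after the change to low horse serum (DM3), with 2 cultures at each stage, numbered 1 and 2. Genotype and stage gave 4 groups of 4 libraries, each from 2 lines. Each tKO clone is a single derived line, and the control lines are populations, so genotype and clonal derivation cannot be told apart. P-values over libraries treat cultures of 1 line as replicates and therefore mostly measure the spread between these lines and cultures.

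The libraries held 22642563 to 56585952 fragments over the listed genes, and the floor of 3 fragments equals 0.053 to 0.132 FPKM for a gene of 1 kilobase. This floor covers counting error only, since the fragments carry no molecular identifiers. Levels of the deleted microRNAs were not analysed here, so the knockout itself was not checked in these libraries. The muscle marker list (12 genes) summed to 69.4 to 87.3 FPKM in control GM and 64.0 to 143 FPKM in tKO GM. At DM3 it summed to 940 to 1331 FPKM in control and 448 to 1320 FPKM in tKO cells. Among its defining genes, Myf5 was present in GM at 17.0 ± 3.07 FPKM in control and 12.5 ± 1.01 FPKM in tKO cells (SD, n = 4 each). Myod1, a master regulator of the muscle lineage, was listed at 0 in every control GM library and at 0 to 0.0546 FPKM in tKO GM, and averaged 1.90 ± 0.996 FPKM in control and 2.34 ± 0.879 FPKM in tKO DM3 (SD, n = 4). Pax7 did not exceed 0.0237 FPKM in any library. Of 10 tested muscle markers, Cdh15 alone was called between genotypes (adjusted p under 0.05), higher in tKO GM (1.47 in log2(FPKM + 1), limma adjusted p = 0.000589). Des alone was called between clones, lower in clone 2 (-1.53, limma adjusted p = 0.00707), a call lost in 1 of 15 alternative fits. The shares called over all tested genes were 2.06% in GM, 3.38% at day 3 and 1.05% between clones. Endothelial markers (5 genes) summed to at most 0.385 FPKM in any library.

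PDGF ligands are secreted as dimers of disulfide-linked chains. PDGF-A and PDGF-B are cleaved inside the cell by furin-type proteases, whereas PDGF-C and PDGF-D leave the cell as latent forms that extracellular proteases activate. The dimers bring together the receptor tyrosine kinases PDGFRα and PDGFRβ, which act through phosphatidylinositol 3-kinase, phospholipase C gamma, Ras and MAP kinases. PDGFRα responds to A, B and C chains, and PDGFRβ mainly to B and D chains. In skeletal muscle, Pdgfra is best known as a marker of fibro-adipogenic progenitors and Pdgfrb as a marker of mural cells around vessels. Pdgfrl encodes a protein related to the extracellular part of these receptors that has no kinase domain.

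The mature microRNA removed by the miR-206 deletion is shown because its seed sets the site that was looked for in the members. The RefSeq sequence comes from chr1:20679055-20679076 (plus strand, GRCm38.p6), with bases 2 to 8, the seed, in capitals.
mmu-miR-206-3p: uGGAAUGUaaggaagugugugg
The search covered the sense strand of the longest annotated 3′UTR for ACATTCCA and for the shorter forms ACATTCC and CATTCCA that it contains. Among 10801 tested genes with an annotated 3′UTR, 4.46% held the 8-base form and 18.9% held any of the 3. Of the 7 members, Pdgfa alone held a match, a single 7-base one at position 48 of its 3′UTR of 1203 bases. The match is in capitals in the GRCm38 window chr5:138977161-138977190 (minus strand).
Pdgfa: cacggatgtgcgtggcgtgtgACATTCCtg
The Pdgfrl 3′UTR of 282 bases held none of the 3 forms. A match is a description of these letters, and its absence says nothing about binding elsewhere.

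Pdgfrl (ENSMUSG00000031595, mm10 chr8:40926212-40990785, plus strand) had the largest genotype difference of the 7 genes in GM. Pdgfrl also ranked first at day 3, where its fall chose the set, so that rank is no separate result. In control GM cells it was at 4.58 and 4.57 FPKM in line 1 and at 3.50 and 4.57 FPKM in line 2, cultures 1 and 2. In tKO GM cells it was at 0 and 0.064 FPKM in clone 1 and at 0.370 and 0.565 FPKM in clone 2. The lowest control library therefore lay far above the highest tKO library, and clone 1, with 0 and 3 fragments, was at or under the floor in both cultures. The GM group means were 4.30 ± 0.538 and 0.250 ± 0.265 FPKM (SD, n = 4), a 17.2-fold lower mean in tKO cells. Leaving out 1 tKO library moved this ratio between 12.9-fold and, without clone 2 culture 2, 29.8-fold. Clone 2 alone was 9.21-fold below the control mean, and no fold is given for clone 1, which was at or under the floor. On the log2(FPKM + 1) scale Pdgfrl fell by 2.10 in tKO GM cells (SE 0.358, 95% interval -2.86 to -1.35, limma adjusted p = 0.00477), lower in 4 of 4 libraries.

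The day 3 values, which chose the gene, lay above the GM values in both genotypes. Control DM3 cells held 19.9 and 37.0 FPKM in line 1 and 18.9 and 36.8 FPKM in line 2. Culture 2 was the higher one in both control lines. The tKO DM3 libraries held 0.723 and 0.907 FPKM in clone 1 and 2.81 and 6.24 FPKM in clone 2. Means were 28.2 ± 10.1 and 2.67 ± 2.56 FPKM (SD, n = 4), so the tKO mean was 10.5-fold lower, by 34.6-fold in clone 1 and by 6.22-fold in clone 2. The DM3 mean exceeded the GM mean 6.54-fold in control cells and 10.7-fold in tKO cells, and in neither genotype did the stages overlap. In GM, clone 1 was at or under the floor and clone 2, with 24 and 36 fragments, above it.

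**Figure D1:**
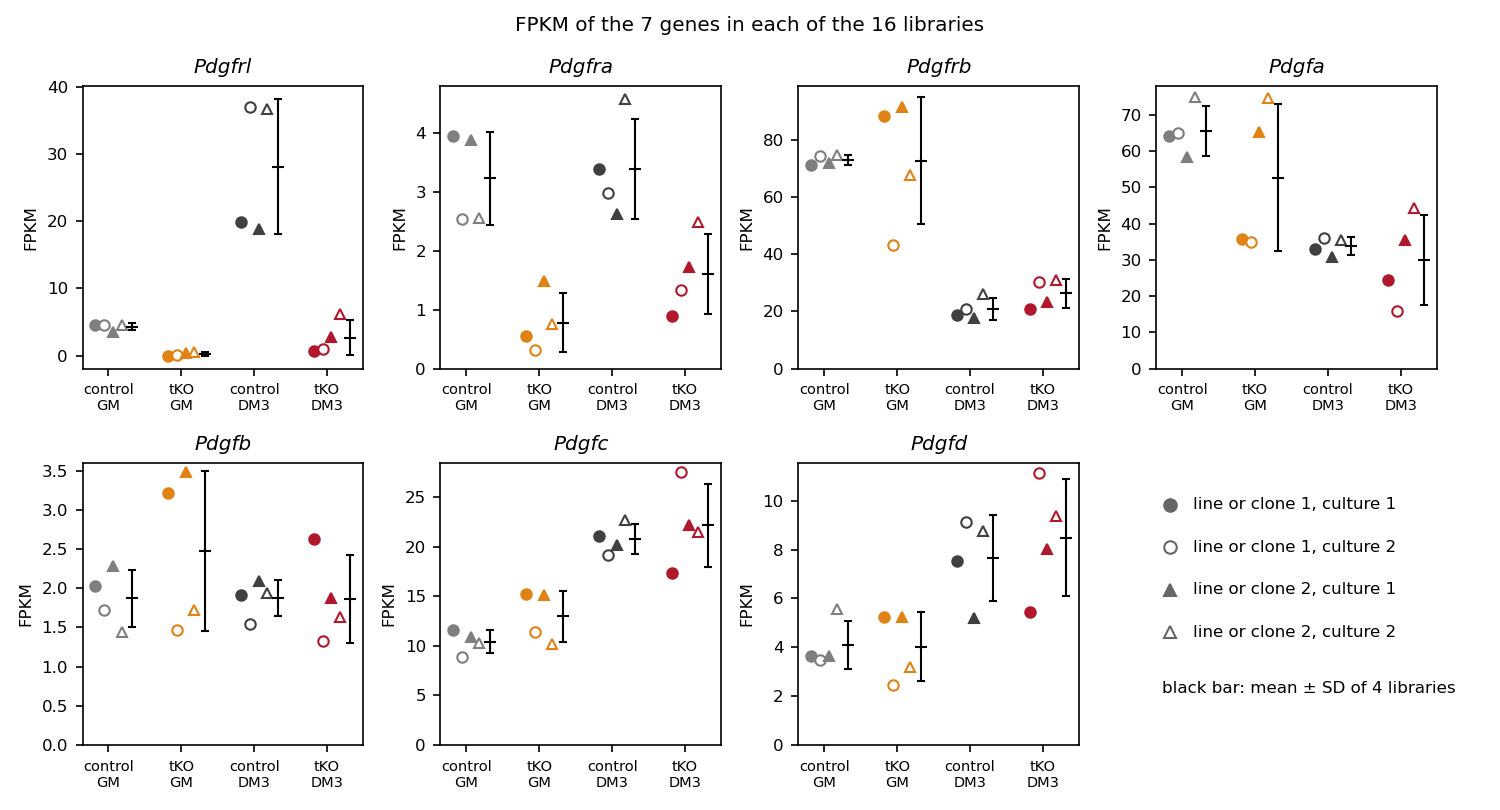
FPKM (y axis, linear) of each of the 7 genes in the 16 libraries by group (x axis). Circles are line or clone 1, triangles line or clone 2, filled symbols culture 1, open symbols culture 2, and black bars give the mean ± SD of 4 libraries. Pdgfrl and Pdgfra separate control from tKO libraries at both stages, and the ligand panels overlap between genotypes.

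Pdgfra (ENSMUSG00000029231, mm10 chr5:75152291-75198204, plus strand), the alpha receptor, was also lower in tKO cells. Control GM libraries held 3.95 and 2.54 FPKM in line 1 and 3.88 and 2.55 FPKM in line 2. The tKO GM libraries held 0.560 and 0.323 FPKM in clone 1 and 1.48 and 0.751 FPKM in clone 2. Culture 1 was higher than culture 2 in all 4 lines in GM, and the genotypes did not overlap. Means were 3.23 ± 0.792 and 0.778 ± 0.499 FPKM (SD, n = 4), a 4.15-fold lower tKO mean. Pdgfra fell by 1.27 on the log2(FPKM + 1) scale (SE 0.216, 95% interval -1.73 to -0.81, limma adjusted p = 0.00477), lower in 4 of 4 tKO libraries.

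At day 3 the Pdgfra values were 3.38 and 2.98 FPKM in control line 1 and 2.62 and 4.58 FPKM in control line 2. The tKO values were 0.891 and 1.33 FPKM in clone 1 and 1.73 and 2.48 FPKM in clone 2. The groups again did not overlap, though clone 2 culture 2 came close to the lowest control library. The tKO mean of 1.61 ± 0.675 FPKM was 2.11-fold below the control mean of 3.39 ± 0.853 FPKM (SD, n = 4). Clone 1 was 3.05-fold and clone 2 was 1.61-fold below the control mean at this stage, against 7.32-fold and 2.90-fold in GM.

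Pdgfrb (ENSMUSG00000024620, mm10 chr18:61045150-61085061, plus strand), the beta receptor, was the most abundant receptor transcript and had no called genotype difference in GM. The 4 control GM libraries lay within 71.1 to 74.5 FPKM. The tKO GM libraries were at 88.2 and 43.3 FPKM in clone 1 and 91.4 and 67.8 FPKM in clone 2, so they spread on both sides of the controls. Their mean of 72.7 ± 22.2 FPKM equalled the control mean of 72.9 ± 1.76 FPKM (SD, n = 4) to within 1 SD, with a log2 difference of -0.063 (95% interval -0.48 to 0.35, limma adjusted p = 0.909). The sign depended on the culture number: tKO minus control was 0.33 in culture 1 and -0.45 in culture 2, without overlap in either. At day 3, control libraries spanned 17.6 to 26.1 FPKM and tKO libraries 20.9 to 30.9 FPKM, and the groups overlapped. Within cultures 1 and 2 taken alone, the day 3 genotypes did not overlap, with differences of 0.27 and 0.38. Each comparison within a culture number, in GM or at day 3, sets 2 libraries against 2, so a lack of overlap says little.

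In GM, 2 of the 7 members were called, both lower and both receptors or receptor-like (limma, adjusted p under 0.05). Over all 11832 tested genes the share called in this comparison was 2.06%, with 65 genes higher and 179 lower. The GM libraries took no part in choosing the set, but they come from the same 4 lines as the DM3 libraries. Both calls rest on having both control lines. Without control line 1 the adjusted p was 0.252 for Pdgfrl and 0.235 for Pdgfra, without control line 2 it was 0.147 and 0.137, and with line averages as units 0.106 and 0.063, while the differences stayed between -2.18 and -2.03 for Pdgfrl and at -1.27 for Pdgfra. Within cultures 1 and 2, the Pdgfrl differences in GM were -2.10 and -2.11, and those of Pdgfra were -1.32 and -1.22.

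**Figure D2:**
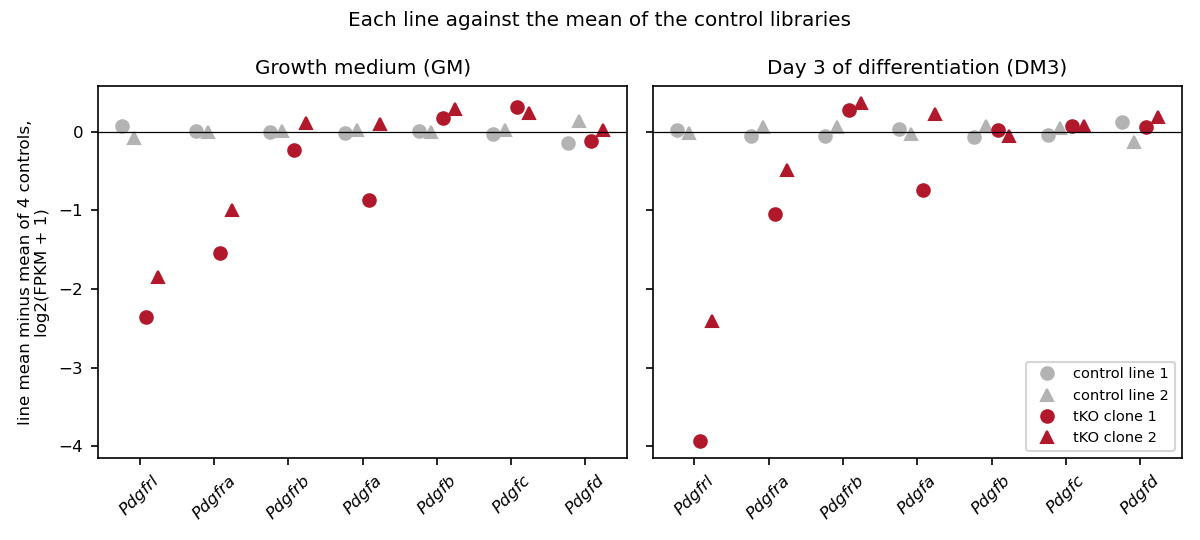
Difference of each line's mean from the mean of the 4 control libraries of the same stage, in log2(FPKM + 1) (y axis), for the 7 genes (x axis) in GM (left) and DM3 (right). Grey symbols are control lines and red symbols tKO clones. Both clones lie below the control lines for Pdgfrl and Pdgfra, and for Pdgfa clone 1 alone does. For Pdgfrb, clone 1 lies below the control lines in GM only.

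Pdgfra transcripts made up 4.25 ± 1.09% of the summed receptor FPKM (Pdgfra plus Pdgfrb) in GM controls and 1.01 ± 0.434% in the GM knockout (SD, n = 4). At day 3 the shares were 13.9 ± 1.41% in control and 5.66 ± 1.76% in tKO cells. The lowest control share, 3.30% in GM and 12.5% in DM3, lay above the highest tKO share, 1.59% and 7.42%. The alpha receptor was therefore the minor transcript in every library. These shares use each gene's listed length, and RNA levels do not measure receptor protein.

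Among the ligands, Pdgfa (ENSMUSG00000025856, mm10 chr5:138976014-138997370, minus strand), the chain of PDGF-AA, was the most abundant in every group mean, and the tKO clones differed in it. In GM it was at 64.1 and 65.1 FPKM in control line 1 and at 58.3 and 75.0 FPKM in control line 2. Clone 1 held 35.8 and 34.9 FPKM and clone 2 held 65.1 and 74.7 FPKM. Clone 1 thus lay below every control library, and clone 2 lay within their range. At day 3 the controls spanned 30.7 to 35.9 FPKM, clone 1 held 24.5 and 15.8 FPKM, and clone 2 held 35.4 and 44.2 FPKM. Clone 1 was again below every control library, whereas clone 2 culture 2 was above them all.

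Over both stages, Pdgfa was higher in clone 2 than in clone 1 by 0.97 on the log2(FPKM + 1) scale (SE 0.151, 95% interval 0.63 to 1.31, limma with stage as a covariate, adjusted p = 0.0219), and higher in 4 of 4 stage and culture pairs. It was the 1 member called in this comparison, against 1.05% of all tested genes (124 genes). The call was lost when all genes with any fragment were tested (adjusted p = 0.117) and in 6 of the 8 fits that left out 1 tKO library (adjusted p up to 0.0973), with differences of 0.90 to 1.03. Pdgfrl and Pdgfra also had higher values in clone 2, by 1.02 (adjusted p = 0.107) and 0.55 (adjusted p = 0.154), and neither was called. Pdgfrl passed the threshold with a pseudocount of 0.1 (2.18, adjusted p = 0.0225), a setting that widens differences at low values. Clone 1 in GM, with 0 and 3 fragments of Pdgfrl, was at or under the floor. As a group, tKO GM cells had no called difference in Pdgfa (-0.39, 95% interval -0.96 to 0.18, limma adjusted p = 0.49). With clone 1 as the sole tKO line the difference was -0.87, and with clone 2 as the sole tKO line it was 0.092. Each of these values rests on 2 cultures of 1 clone, so no p-value is given.

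Pdgfc (ENSMUSG00000028019, mm10 chr3:81036416-81214040, plus strand), a latent ligand of the alpha receptor, was at 11.6, 8.88, 10.9 and 10.3 FPKM in the control GM libraries. The tKO GM libraries held 15.2 and 11.4 FPKM in clone 1 and 15.1 and 10.2 FPKM in clone 2. The groups overlapped, and the difference of 0.28 was not called (95% interval -0.03 to 0.59, limma adjusted p = 0.334). At day 3 the range was 19.2 to 22.7 FPKM in control and 17.4 to 27.6 FPKM in tKO cells, also overlapping.

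Pdgfd (ENSMUSG00000032006, mm10 chr9:6168612-6378843, plus strand), the latent ligand of the beta receptor, was at 3.66, 3.48, 3.66 and 5.58 FPKM in control GM and at 5.22, 2.45, 5.23 and 3.20 FPKM in tKO GM. Its GM difference was -0.047 (95% interval -0.53 to 0.44, limma adjusted p = 0.944). As for Pdgfrb, the culture numbers disagreed, with tKO minus control at 0.42 in culture 1 and -0.51 in culture 2. Day 3 levels were 5.20 to 9.11 FPKM in control and 5.43 to 11.1 FPKM in tKO cells.

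Pdgfb (ENSMUSG00000000489, mm10 chr15:79995900-80014808, minus strand), the chain of PDGF-BB, was the least abundant ligand. Its GM means were 1.87 ± 0.367 FPKM in control and 2.47 ± 1.02 FPKM in tKO cells, and its day 3 means 1.88 ± 0.229 and 1.86 ± 0.557 FPKM (SD, n = 4). The tKO GM libraries split by culture, with 3.21 and 3.48 FPKM in culture 1 and 1.47 and 1.72 FPKM in culture 2. The GM difference of 0.24 was not called (95% interval -0.17 to 0.64, limma adjusted p = 0.569). Neither differentiation comparison called Pdgfb (0.0078, adjusted p = 0.974, in control and -0.25, adjusted p = 0.271, in tKO cells). On day 3, where no member was tested, the tKO minus control differences were 0.32 for Pdgfrb, -0.26 for Pdgfa, -0.022 for Pdgfb, 0.074 for Pdgfc and 0.12 for Pdgfd, against -3.17 for Pdgfrl and -0.77 for Pdgfra. The signs for Pdgfa, Pdgfb, Pdgfc and Pdgfd at day 3 turned in some alternatives, with ranges of -0.74 to 0.23, -0.14 to 0.073, -0.032 to 0.18 and -0.031 to 0.29. Pdgfa was at 0.23 without clone 1.

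Differentiation moved 1 receptor and 3 ligands in the same direction in both genotypes. Pdgfrb fell by 1.78 in control cells (72.9 to 20.8 FPKM, 3.51-fold, limma adjusted p = 1.21e-06) and by 1.39 in tKO cells (72.7 to 26.3 FPKM, 2.76-fold, adjusted p = 1.42e-05). Pdgfa fell by 0.94 in control cells (65.6 to 33.7 FPKM, adjusted p = 0.00654) and by 0.81 in tKO cells (52.6 to 30.0 FPKM, adjusted p = 0.016). Both latent ligands rose instead. Pdgfc rose by 0.94 in control cells (10.4 to 20.8 FPKM, adjusted p = 3.71e-05) and by 0.73 in tKO cells (12.99 to 22.2 FPKM, adjusted p = 0.000368). Pdgfd rose by 0.76 in control cells (4.09 to 7.65 FPKM, adjusted p = 0.00901) and by 0.93 in tKO cells (4.02 to 8.48 FPKM, adjusted p = 0.00231).

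Pdgfra did not pass the test in control cells (0.053, limma adjusted p = 0.846) and rose by 0.56 in tKO cells (0.778 to 1.61 FPKM, adjusted p = 0.035). The difference between these 2 responses was not tested. That tKO call was lost in 5 of the 8 fits that left out 1 library (adjusted p up to 0.122), with all genes tested (0.0693) and with the 8 tKO libraries alone (0.0756). The Pdgfa fall in tKO cells was lost in 3 of those 8 fits (adjusted p up to 0.0619), with the tKO libraries alone (0.0682) and with median-of-ratios scaling (0.0518).

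Of the 6 members tested, 4 were called in control cells and 5 in tKO cells, against 61.5% and 60.9% of all tested genes, so a call in these comparisons is common. The comparisons within a genotype share the GM libraries with the genotype comparison above. Of all calls in control cells 2743 were higher and 4529 lower, and in tKO cells 2951 and 4257. Median-of-ratios scaling, which sets a median gene to no change, moved the median of all genes from -0.153 to 0.0097 in control and from -0.123 to 0.0064 in tKO cells. The calls then split into 3611 higher and 3631 lower in control and 3571 and 3587 in tKO cells. Under that scaling Pdgfrb still differed by -1.58 and -1.24, Pdgfa by -0.74 and -0.65, Pdgfc by 1.13 and 0.88, and Pdgfd by 0.93 and 1.06, in control and tKO cells.

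**Figure D3:**
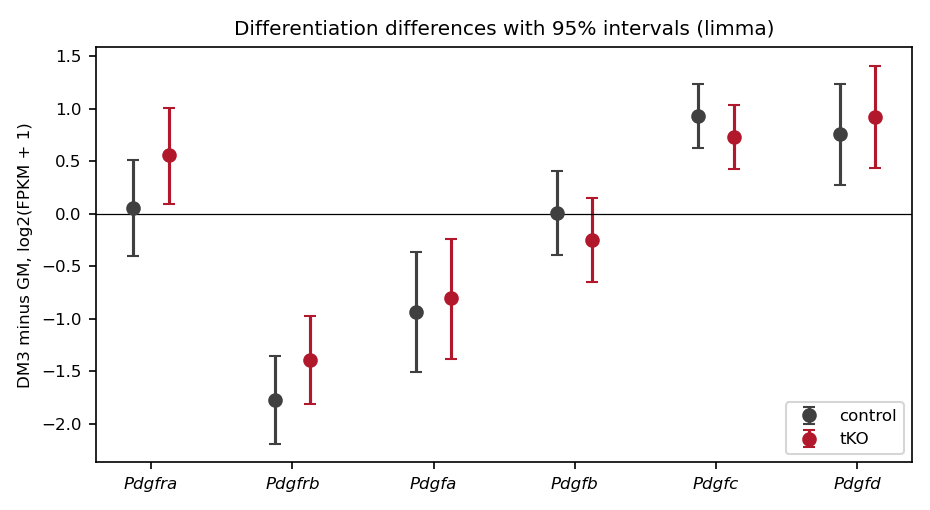
DM3 minus GM difference in log2(FPKM + 1) (y axis) for the 6 members other than Pdgfrl (x axis), in control (grey) and tKO cells (red), with limma 95% intervals. Pdgfrb and Pdgfa lie below 0 and Pdgfc and Pdgfd above 0 in both genotypes.

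Pdgfa supplied 79.9 ± 2.16% of the summed ligand FPKM in control GM and 52.7 ± 1.37% in control DM3 (SD, n = 4). In tKO cells the shares were 71.5 ± 9.47% and 46.9 ± 12.9%. Pdgfc went from 12.8 ± 1.87% to 32.5 ± 2.36% in control and from 19.2 ± 6.30% to 36.3 ± 9.19% in tKO cells. The Pdgfd share went from 4.95 ± 0.756% to 11.8 ± 2.11% in control and from 5.77 ± 2.21% to 13.7 ± 4.18% in tKO cells. In clone 1 culture 2 at day 3, Pdgfa held its smallest share, 28.3%, and Pdgfc reached its largest, 49.4%. The summed ligand level was 82.0 ± 7.31 FPKM in control GM, 72.1 ± 20.3 FPKM in tKO GM, 64.1 ± 4.48 FPKM in control DM3 and 62.5 ± 11.97 FPKM in tKO DM3.

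**Figure D4:**
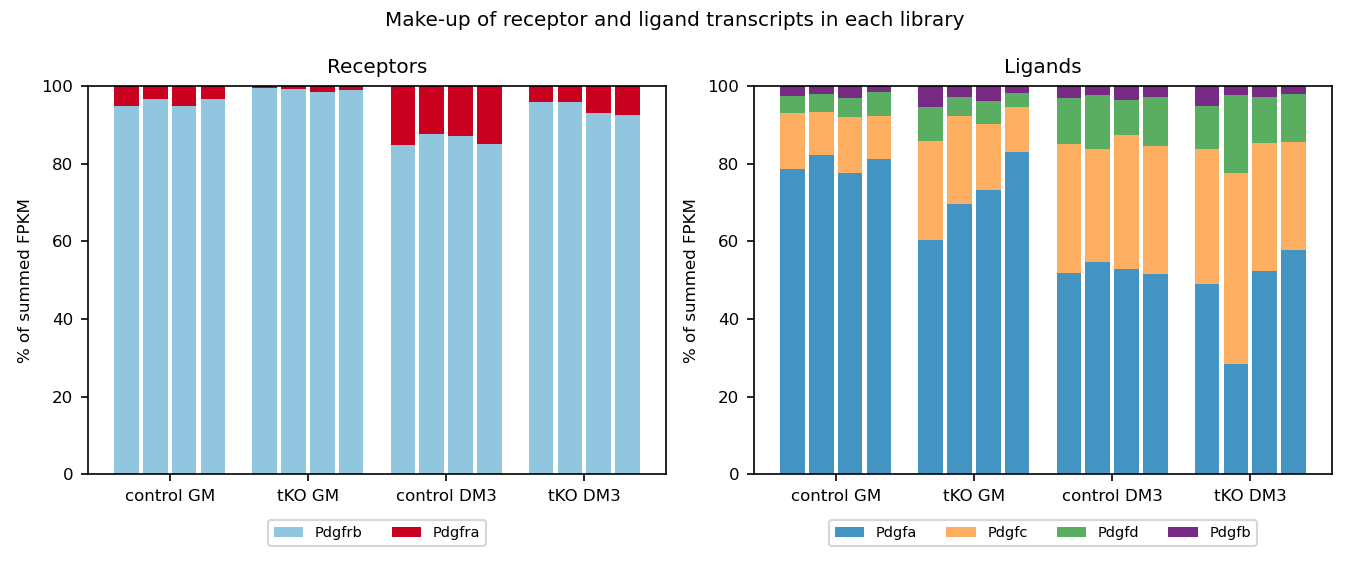
Share of summed FPKM (y axis, percent) held by each receptor (left) and each ligand (right) in the 16 libraries. Within a group the 4 bars are line or clone 1 cultures 1 and 2, then line or clone 2 cultures 1 and 2. The Pdgfra share is smaller in every tKO library than in any control library of its stage, and the Pdgfa share is smaller on average at DM3.

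Ordered by group mean, control GM cells held Pdgfrb (72.9 FPKM), Pdgfa (65.6), Pdgfc (10.4), Pdgfrl (4.30), Pdgfd (4.09), Pdgfra (3.23) and Pdgfb (1.87). Pdgfrb and Pdgfa overlapped between libraries, as did Pdgfrl with Pdgfd and Pdgfd with Pdgfra. In control DM3 cells Pdgfrl moved up to the second place, behind Pdgfa, and the upper 4 genes (Pdgfa, Pdgfrl, Pdgfrb and Pdgfc, 33.7 to 20.8 FPKM) overlapped with their neighbours. In tKO GM cells Pdgfrl was last and overlapped with Pdgfra above it. In tKO DM3 cells Pdgfrl, Pdgfb and Pdgfra formed the lowest 3 and overlapped. The listed length of Pdgfrl, 2069 bases, exceeds that of its coding transcript, 1548 bases, so its level relative to the other genes depends on the length used.

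Across the 16 libraries, Pdgfrl and Pdgfra had a Pearson r of 0.82 on the log2(FPKM + 1) scale, and Pdgfc and Pdgfd of 0.87. Pdgfrb and Pdgfa had an r of 0.72, and Pdgfa and Pdgfc of -0.79. These are descriptions over libraries that share lines, stages and genotypes. The tested genes most like Pdgfrl by the same measure were Col11a1, a fibrillar collagen chain (0.982), Adamts12, a metalloprotease (0.980), Lifr, the leukemia inhibitory factor receptor (0.967), Enpp2, the lysophospholipase autotaxin (0.953), and Chst15, a sulfotransferase (0.943). Lifr was at 4.85 ± 0.843 FPKM in control GM, 0.849 ± 0.158 FPKM in tKO GM, 11.7 ± 4.34 FPKM in control DM3 and 2.80 ± 1.70 FPKM in tKO DM3 (SD, n = 4). Enpp2 went from 2.13 ± 0.719 to 0.410 ± 0.491 FPKM between the genotypes in GM, and from 26.1 ± 11.96 to 4.51 ± 5.37 FPKM at day 3.

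The genes most like Pdgfra were Emilin2, an extracellular matrix glycoprotein (0.969), Mgst1, a glutathione transferase (0.951), and Clmp, a cell adhesion molecule (0.934). Emilin2 was at 21.02 ± 3.04 and 7.58 ± 2.17 FPKM in control and tKO GM and at 20.8 ± 1.96 and 11.97 ± 1.19 FPKM in control and tKO DM3 (SD, n = 4). Its similar control levels at both stages are part of the Pdgfra pattern by which it was picked. For Pdgfrb they were Epb4.1l1 (0.984), Rad54l (0.983) and C230052I12Rik (0.977), and for Pdgfa Gm14139 (0.917), Wnt4 (0.912) and Osbpl1a (0.909). For Pdgfc they were Slc40a1 (0.955), Stradb (0.953) and Ivd (0.952), and for Pdgfd Tmem30a (0.950), Cacna2d1 (0.935) and Tex26 (0.934). The highest values for Pdgfb were lower, with Hint1 at 0.843, Fam92a at 0.826 and Cenpw at 0.783.

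The nearest tested protein-coding genes on either side of Pdgfrl were looked at for the same pattern. Mtus1, a microtubule-associated protein gene on the opposite strand, lies next to Pdgfrl with its 3′ end 0.129 kb beyond the end of Pdgfrl. Its tKO minus control difference was -0.66 in GM (limma adjusted p = 0.316) and -0.73 at day 3 (adjusted p = 0.278). Clone 1 alone was low for Mtus1, at a mean of 1.40 FPKM in GM and 5.32 FPKM at day 3, whereas clone 2 was at 3.91 and 14.3 FPKM and the control lines at 4.42 to 4.44 and 14.6 to 15.5 FPKM. Mtus1 was higher in clone 2 than in clone 1 by 1.17 (adjusted p = 0.0376), a call lost in 8 of 15 alternative fits (adjusted p up to 0.151). It rose in differentiation by 1.56 in control (adjusted p = 0.000696) and 1.497 in tKO cells (adjusted p = 0.000976). None of the other 7 neighbours, Micu3, Zdhhc2, Cnot7, Vps37a, Pcm1, Asah1 and Frg1, was called between genotypes at either stage (-0.44 to 0.43). Whether the authors' counting used the strand is not stated in the sources used here.

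**Figure D5:**
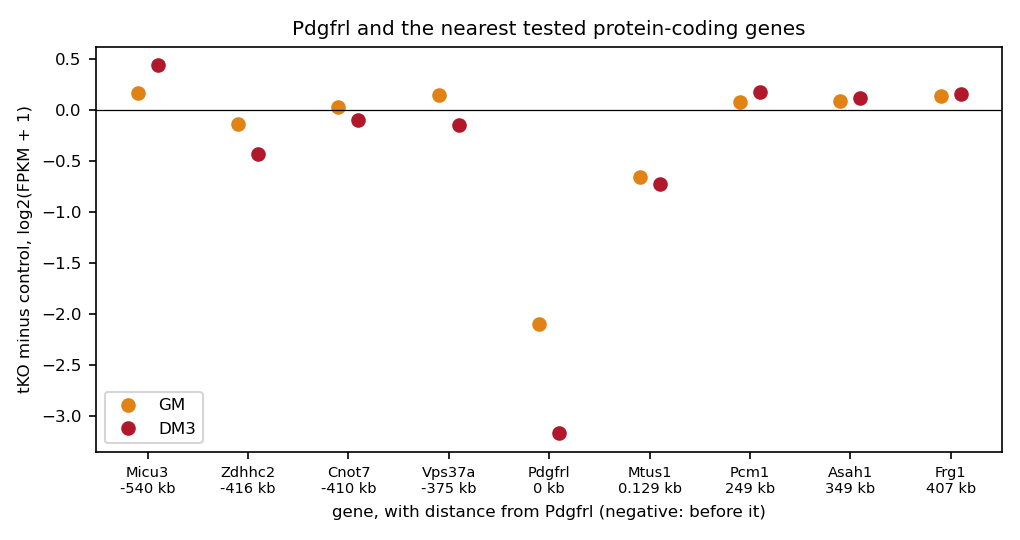
Difference of tKO minus control in log2(FPKM + 1) (y axis) for Pdgfrl and the 4 nearest tested protein-coding genes on each side (x axis, with distance in kilobases), in GM (orange) and DM3 (red). Pdgfrl is at -2.10 and -3.17, Mtus1 at -0.66 and -0.73, and the remaining 7 genes lie between -0.44 and 0.43.

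Genes that process PDGF ligands were taken from a fixed list of 11, of which 8 were tested. One was called between genotypes, Serpine2, the protease inhibitor nexin-1. It was at 1.08 ± 0.108 FPKM in control GM and 0.0048 ± 0.0096 FPKM in tKO GM, and at 1.52 ± 0.374 and 0.0099 ± 0.0114 FPKM at day 3 (SD, n = 4). The log2(FPKM + 1) differences were -1.05 in GM (limma adjusted p = 2.66e-05) and -1.31 at day 3 (adjusted p = 1.38e-06), lower in 4 of 4 tKO libraries at each stage. The Serpine2 mean of 0.653 FPKM over the 16 libraries passed the filter through the control libraries alone. A gene at the tKO level in every library would not have been tested. Furin, which cleaves the A and B chains, was not called in GM (-0.26, adjusted p = 0.304) or DM3 (0.037, adjusted p = 0.918). The share called over all tested genes was 2.06% in GM and 3.38% at day 3.

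During differentiation, 5 of these 8 processing genes were called in each genotype (3 higher and 2 lower in control, 2 higher and 3 lower in tKO cells). This share of 62.5% is close to the 61.5% and 60.9% of all tested genes. With median-of-ratios scaling the counts were 3 higher and 1 lower in control and 3 and 3 in tKO cells. Plat, the tissue plasminogen activator that activates PDGF-C, rose by 1.55 in control (11.2 to 35.1 FPKM, limma adjusted p = 3.47e-05) and by 1.94 in tKO cells (7.18 to 31.5 FPKM, adjusted p = 3.38e-06). Plaur, the urokinase receptor, fell by 1.10 (adjusted p = 0.0238) and by 2.33 (adjusted p = 9.6e-05), and its control call was lost in 5 of 16 alternative fits (adjusted p up to 0.0746). Pcsk7, a proprotein convertase, fell by 0.79 and 0.49. The processing genes Pcsk5, Pcsk6 and St14 were under the filter.

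Of 40 tested genes of proximal receptor signalling, 1 was called between genotypes in GM (2.5%) and 0 at day 3 (limma). The shares over all tested genes were 2.06% and 3.38%. List medians were -0.0047 and 0.025, beside -0.012 and 0.0077 over all tested genes. The called gene was Stat3, a transcription factor that receptor tyrosine kinases and cytokine receptors activate. It was at 17.5 ± 1.14 FPKM in control and 11.4 ± 1.38 FPKM in tKO GM (SD, n = 4), a log2 difference of -0.59 (adjusted p = 0.0023) that was not called without control line 1 (0.293), without control line 2 (0.104) or with line averages (0.0604). At day 3 Stat3 was at 35.4 ± 1.45 and 31.1 ± 1.36 FPKM (-0.18, adjusted p = 0.34). In differentiation 11 of the 40 rose and 14 fell in control cells (62.5%, against 61.5% of all tested genes). In tKO cells 13 rose and 15 fell (70%, against 60.9%). Median-of-ratios scaling turned that balance, to 16 higher and 11 lower in control and 16 and 14 in tKO cells.

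Among these signalling genes, the direct receptor effector Plcg1, phospholipase C gamma, rose by 0.73 in controls and by 0.97 in the knockout. The Src-family kinase Fyn rose by 1.03 and 0.80. The GTPases Hras and Nras fell by 1.17 and 0.90 in control and by 1.52 and 0.79 in tKO cells. Rasa1, a Ras GTPase-activating protein that binds the beta receptor, fell by 1.61 and 0.85. The adaptors Crk and Crkl fell by 1.19 and 1.03 in control and by 0.81 and 1.04 in tKO cells.

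Negative regulators (19 tested of 20) held 0 calls between genotypes in GM and 2 at day 3 (limma), 0% and 10.5%, against 2.06% and 3.38% of all tested genes. Spry1, a feedback inhibitor of receptor tyrosine kinase signalling, was at 2.22 to 3.19 FPKM in control DM3 and 0.0752 to 0.371 FPKM in tKO DM3, without overlap. Its day 3 difference was -1.54 (adjusted p = 2.33e-07), and it was at 0.261 ± 0.0484 and 0.0059 ± 0.0068 FPKM in control and tKO GM (-0.33, adjusted p = 0.139). It rose in differentiation by 1.51 in control (limma adjusted p = 1.9e-08) and by 0.30 in tKO cells (adjusted p = 0.0295). Over 15 alternative fits the Spry1 rise spanned 1.43 to 3.3 in control and 0.25 to 4.31 in tKO cells. Which genotype had the larger rise thus depended on the setting, and the difference between the rises was not tested. The Spry1 mean of 0.778 FPKM over the 16 libraries passed the filter through the control DM3 libraries alone. The Spry1 rise in tKO cells was lost in 7 of 15 alternative fits, among them the one with line and culture as a replicate block (adjusted p up to 0.0837 over all 15). Ptprj, a receptor-type phosphatase that acts on PDGFRβ, was higher in tKO DM3 (2.16 ± 0.475 to 4.01 ± 1.15 FPKM, SD, n = 4, difference 0.65, adjusted p = 0.0252), a call that was lost in 10 of 21 alternative fits (adjusted p up to 0.613).

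In differentiation, 12 of the 19 negative regulators were called in each genotype (63.2%, with 4 higher and 8 lower in control, and 6 and 6 in tKO cells). Over all tested genes 61.5% and 60.9% were called in control and tKO cells. Spry2 rose by 1.01 in controls and by 0.95 in the knockout. The MAP kinase phosphatase Dusp5 fell by 1.79 and 2.02, and the Ras pathway inhibitor Spred2 by 0.87 and 0.62. Spry4 was under the filter.

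Immediate early genes, which growth factors induce within minutes, had 0 of 16 calls between genotypes at either stage (limma). The shares over all tested genes were 2.06% and 3.38%, so 0 calls in a list this short says little. List medians were 0.083 in GM and 0.075 at day 3. In differentiation 3 rose and 3 fell in control (37.5% called), and 5 rose and 4 fell in tKO cells (56.2%), against 61.5% and 60.9% of all tested genes. Fosl1 fell by 3.00 in control and fell by 2.57 in tKO cells, and Srf, the serum response factor, by 0.96 and 1.21. Atf3 rose by 2.50 and 1.94. With median-of-ratios scaling the counts were 4 higher and 2 lower in control and 5 and 2 in tKO cells.

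Related ligands and receptors of the Kit, Csf1 and Vegf families had 0 of 10 tested genes called between genotypes at either stage (limma). The shares over all tested genes were 2.06% in GM and 3.38% at day 3, so 0 calls in a list this short says little. Under median-of-ratios scaling 1 gene of the list was called higher at day 3. In differentiation 1 rose and 3 fell in control (40% called), and 3 rose and 2 fell in tKO cells (50%). Over all tested genes 61.5% and 60.9% were called. With median-of-ratios scaling the counts were 3 higher and 3 lower in control and 5 and 1 in tKO cells. Csf1, the macrophage colony-stimulating factor, fell by 1.77 and 1.55, the co-receptor Nrp1 by 1.04 and 0.41, and Vegfc rose by 0.75 and 0.69. The tKO calls of Nrp1 and Vegfc were each lost in 8 of 16 alternative fits (adjusted p up to 0.121 and 0.0908), and the control call of Vegfc in 1 (0.0608, without control line 2 culture 2 at day 3). The receptors Kit, Csf1r, Flt3, Flt1, Kdr and Flt4 were all under the filter.

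Pdgfra is itself a marker of fibro-adipogenic progenitors, and other markers of these cells were read beside it. The list held 12 genes and 5 were tested, and its summed level was 64.1 to 76.9 FPKM in control GM, 52.7 to 74.9 FPKM in tKO GM, 96.1 to 271 FPKM in control DM3 and 87.1 to 192 FPKM in tKO DM3. Osr1, a transcription factor of these progenitors, was lower in tKO GM (2.53 ± 0.399 to 0.333 ± 0.259 FPKM, limma adjusted p = 9.73e-06) and in tKO DM3 (4.38 ± 0.295 to 0.250 ± 0.0904 FPKM, adjusted p = 7.1e-08), n = 4 each. Its mean of 1.87 FPKM over the 16 libraries passed the filter through the control libraries alone. Dcn, the matrix proteoglycan decorin, was lower in tKO DM3 (30.1 ± 4.24 to 9.50 ± 4.31 FPKM, adjusted p = 0.0145), a call lost in 7 of 22 alternative fits (adjusted p up to 0.327). Cd34, Ly6a and Tcf7l2 were not called between genotypes, and their differences were 0.39, -0.35 and -0.21 in GM and 0.53, -0.21 and 0.048 at day 3. Cd34 was thus higher on average in tKO cells, at 16.0 ± 2.94 and 23.5 ± 3.45 FPKM in control and tKO DM3. The remaining 7 (Lum, Dpt, Col15a1, Dpp4, Pi16, Clec3b and Thy1) were under the filter. Of these, Pi16, Dpt, Lum and Clec3b had higher day 3 means in tKO than in control cells (0.984 against 0.538, 0.878 against 0.588, 0.154 against 0.0334 and 0.168 against 0.0779 FPKM), with no test. The part of these cells or states in the Pdgfrl and Pdgfra values was not tested, and in these bulk libraries fewer cells with a transcript and less transcript per cell cannot be told apart. Among mural markers (3 tested of 8), Cspg4 was higher in tKO DM3 by 0.71 (limma adjusted p = 0.00261, not called without control line 1 or 2, adjusted p up to 0.196). Mcam was not called between genotypes, at 0.35 in GM (limma adjusted p = 0.529) and -0.052 at day 3 (adjusted p = 0.946). Acta2 was at 735 to 5436 FPKM over all libraries and not called between genotypes. Rgs5, Kcnj8, Abcc9, Higd1b and Myh11 were under the filter.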

How the data were processed

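RNA sequencing of 16 libraries was analysed from 1 table of FPKM values that the authors deposited, with gene length, position and type for each gene. Per the submitters' processing notes, STAR and DESeq were used with build mm10. The versions, counting program, annotation release and strand setting are not given in the sources used here. Samples were grouped by their titles. FPKM times gene length gave whole fragments (within 0.05) for 100% of non-zero values, which gave the depth.

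Tests used limma 3.58.1 (R 4.3.3) on log2(FPKM + 1), which understates changes of low genes. The 11832 genes averaging 0.5 FPKM or more entered a group-means fit of 16 libraries with trend and robust moderation, and the clone comparison used the 8 tKO libraries with stage as a covariate. P-values were adjusted by Benjamini-Hochberg over them, called under 0.05, and the procedure was tested on simulated data. Intervals are limma's 95% intervals, unadjusted.

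The members, gene lists and tests were chosen with earlier results of these data known. Named were all members, the called or most changed genes of each list, the genes closest to each member by Pearson r (5 for Pdgfrl, 3 for the others), and 4 neighbours on each side of Pdgfrl. All members passed the filter, so the exact permutation test planned for members under it was not used. Sites were searched in the GENCODE M21 3′UTRs. Each line was sampled at both stages, which is where the block of line and culture comes from. Between stages, deviations from group means correlated on average at 0.202 for the same line and culture number and -0.22 for the same line and other number in control cells, and at 0.198 and 0.28 in tKO cells. Deviations cancel within each group, so these averages are not independent of each other. Alternatives were pseudocount, filter, scaling, TPM, voom on fragments, fewer libraries, line averages, line as a random effect and blocks.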

Additional observations from a re-analysis of the deposited data

Results flagged for a closer look

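Of 28 sets of 4 libraries (7 genes in 4 groups) checked for a library far from the rest, 2 held one, and chance alone marks about 1 in 20 such sets. Pdgfrl in control GM was at 3.50 FPKM in line 2 culture 1, below the other 3 libraries at 4.57 to 4.58 FPKM. Pdgfd in control GM was at 5.58 FPKM in line 2 culture 2, above the other 3 at 3.48 to 3.66 FPKM. The tKO clones differed in Pdgfa, with clone 2 higher by 0.97 on the log2(FPKM + 1) scale (limma adjusted p = 0.0219), in 4 of 4 stage and culture pairs.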

How the results depend on the processing

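Of 443 tested member values under alternatives, 388 kept direction and side of the threshold, and of 184 values with no test 11 turned in sign, all in DM3. For GM, 244 genes were called, against 93 with a filter of 5 FPKM, 97 with line averages, 33 without control line 1, 38 without control line 2, 1315 without tKO clone 2 and 80 to 749 without 1 library. For DM3, 400 were called, against 231 with a filter of 5 FPKM, 113 with the compared libraries alone, 131 with line averages, 49 and 64 without control line 1 or 2, 1136 without tKO clone 2 and 208 to 854 without 1 library. Between clones 124 were called, 41 without a filter, 42 with a filter of 5 FPKM and 47 to 332 without 1 library. With a replicate block the counts were 336 (GM), 523 (DM3), 7527 (control differentiation), 7462 (tKO differentiation) and 157 (clones), and no member's call changed. Between genotypes, deviations of libraries with the same culture number correlated at 0.25 on average in GM (0.0955 to 0.452) and 0.187 in DM3 (from -0.224), against -0.249 (-0.419 to -0.0558) and -0.188 for different numbers. Deviations cancel within each group, so the averages for different numbers mirror those for the same number and are no separate result. In GM every same-number pair lay above every other pair, a hint from the data that the labels do not state. Among tested values, signs turned only for uncalled ones. In GM, Pdgfd became 0.091 without control line 2 and 0.025 without clone 1, Pdgfrb 0.11 and Pdgfa 0.092 without clone 1, and without 1 library Pdgfd spanned -0.17 to 0.12 and Pdgfrb -0.19 to 0.16. In control differentiation Pdgfb became -0.030 (TPM) and -0.015 (voom) and spanned -0.067 to 0.076 without 1 library, and Pdgfra -0.068 to 0.14. Between clones Pdgfc became 0.038 (TPM) and spanned -0.17 to 0.081 without 1 library, Pdgfrb -0.013 to 0.39, Pdgfb -0.15 to 0.17 and Pdgfd -0.044 to 0.32. The cause of these changes was not tested. Depth limits Pdgfrl in clone 1 GM, at or under 3 fragments.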
